A study of Mus musculus with 9 samples.

Results

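Immune checkpoint genes, 9 in all, were followed in activated CD8 T cells from 3 clones, named R7-I, R7-III and R7-II. They encode the inhibitory receptors PD-1 (Pdcd1), LAG-3 (Lag3), TIM-3 (Havcr2), TIGIT (Tigit), CD160 (Cd160) and BTLA (Btla), the surface ligand CD200 (Cd200) and the PD-1 ligands PD-L1 (Cd274) and PD-L2 (Pdcd1lg2). The genes were taken by symbol, and all 9 were found among the 24060 genes listed. Each clone stands for a transnuclear BALB/c mouse line, made by transferring the nucleus of 1 CD8 T cell specific for the Toxoplasma gondii peptide ROP7, so that its CD8 T cells share 1 T cell receptor. In the depositors' description, affinity for the peptide falls in the order R7-I, R7-III, R7-II and self-reactivity in the order R7-III, R7-I, R7-II. Splenocytes of each line spent a night in culture with ROP7 peptide at 10 µM and IL-2 at 10 ng/ml, which all groups shared, and CD3+ CD8+ cells binding the H-2Ld tetramer loaded with ROP7 were sorted to a purity of 90 to 95%. RNA was sequenced in 9 libraries, 3 per clone. The libraries are labelled biological replicates, but the sources used here do not say whether each came from a separate mouse. The p-values therefore set clone differences against the spread between these libraries, which may not be the spread between mice. Because each clone is 1 line, receptor and line cannot be told apart. The ages of the mice are not given in the labels.

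Checkpoint receptors are surface proteins that T cells put up after antigen recognition and that dampen signalling through the T cell receptor and CD28, in part by recruiting tyrosine phosphatases. PD-1 binds PD-L1 and PD-L2, LAG-3 binds MHC class II and other ligands, TIM-3 binds galectin-9 among others, TIGIT competes with the activating receptor CD226 for CD155, BTLA and CD160 both bind HVEM, and CD200 engages the inhibitory receptor CD200R on myeloid cells. The same receptors are made early in productive activation and stay high in exhausted T cells, so their RNA marks recent stimulation as well as restraint.

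Reference promoter sequences were read for the 4 genes that R7-II held lower than either other clone, and for Cd274, which was not. They show the DNA next to 1 RefSeq start of each gene, whereas TPM is given per gene. Each run is the 250 bases before that start on mouse build GRCm38.p6, written 5′ to 3′ along the gene's strand, with motif matches in capitals. For Tigit, Btla and Cd274, which have 2 to 4 RefSeq transcripts, the window lies inside the gene's span, so another transcript starts upstream of it. The positions are chr1:94052554-94052803 (minus strand) for Pdcd1, chr16:43664185-43664434 (minus) for Tigit, chr16:45224087-45224336 (plus) for Btla, chr16:45409054-45409303 (minus) for Cd200 and chr19:29367188-29367437 (plus) for Cd274.
Pdcd1: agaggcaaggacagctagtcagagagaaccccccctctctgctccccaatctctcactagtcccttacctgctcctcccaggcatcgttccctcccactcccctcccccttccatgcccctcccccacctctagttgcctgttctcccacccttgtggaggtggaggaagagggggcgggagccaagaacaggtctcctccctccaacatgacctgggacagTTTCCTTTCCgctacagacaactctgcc
Tigit: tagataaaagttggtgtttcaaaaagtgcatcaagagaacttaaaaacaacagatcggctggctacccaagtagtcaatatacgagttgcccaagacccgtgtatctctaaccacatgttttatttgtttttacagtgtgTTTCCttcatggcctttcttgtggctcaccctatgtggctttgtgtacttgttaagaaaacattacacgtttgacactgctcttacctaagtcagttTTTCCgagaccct
Btla: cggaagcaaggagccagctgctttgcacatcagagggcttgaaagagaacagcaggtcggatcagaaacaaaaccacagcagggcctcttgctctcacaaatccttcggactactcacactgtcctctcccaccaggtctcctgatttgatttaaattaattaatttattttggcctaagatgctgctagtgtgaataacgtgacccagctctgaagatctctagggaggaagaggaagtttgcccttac
Cd200: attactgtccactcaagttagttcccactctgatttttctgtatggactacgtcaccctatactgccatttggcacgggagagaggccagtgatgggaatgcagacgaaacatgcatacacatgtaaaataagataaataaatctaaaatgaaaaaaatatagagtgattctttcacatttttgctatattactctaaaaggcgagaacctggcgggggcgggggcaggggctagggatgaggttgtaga
Cd274: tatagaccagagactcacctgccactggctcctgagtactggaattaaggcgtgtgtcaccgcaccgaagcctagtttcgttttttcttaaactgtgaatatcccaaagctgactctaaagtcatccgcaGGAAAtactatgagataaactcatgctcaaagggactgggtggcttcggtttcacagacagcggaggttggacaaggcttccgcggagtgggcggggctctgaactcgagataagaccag
The motifs searched, on both strands, were the NFAT core GGAAA, the AP-1 site TGANTCA, the STAT site TTCNNNGAA and the FOXO site GTAAACA, which 55.6%, 6.75%, 7.02% and 3.17% of 32851 windows of the same length hold. Pdcd1 and Tigit each held 2 matches to the NFAT core, all on the opposite strand (TTTCC), and Cd274 held 1. The windows of Btla and Cd200 held no match to any of the 4 motifs. GC content was 60.4% for Pdcd1, 40.0% for Tigit, 47.2% for Btla, 42.4% for Cd200 and 50.4% for Cd274, beside a median of 52.4% over all windows. For Tigit the window does not end at a start site of the GENCODE annotation. Of the members 8 have a window in the RefSeq table. Lag3 has none there.

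Levels are given as TPM, a measure that corrects for transcript length and scales every library to the same total, so levels can be compared between genes but read depth cannot be recovered. Per library, 13738 to 14434 genes were detected, and libraries of the same clone correlated at 0.992 to 0.997 across genes. The label CD8 T cell held, since all 8 CD8 T cell identity genes were detected in every clone, at summed levels of 2036 to 2114 TPM in R7-I, 2888 to 3005 in R7-II and 2095 to 2238 in R7-III. Genes of other cells also differed. The 8 B cell genes summed to 8.11 to 15.1 TPM in R7-I, 34.2 to 71.0 in R7-II and 4.92 to 7.38 in R7-III. The 7 MHC class II genes summed to 33.0 to 50.4, 115 to 186 and 25.0 to 29.2 TPM, and the 10 myeloid and dendritic genes to 2.83 to 3.44, 18.5 to 71.4 and 3.71 to 5.23 TPM. Most of that last sum in R7-II was Lyz2, at 28.2, 13.8 and 56.7 TPM. Zbtb46 of the same list ran the other way, at 0.677 TPM in R7-II, 2.15 in R7-I and 1.79 in R7-III. The part of B cells and myeloid cells in the results on BTLA, CD200, PD-L1, PD-L2, HVEM, VISTA, CD300a and the galectins, which such cells can also make, was not tested. In bulk RNA, fewer cells expressing a gene and less of its RNA per cell cannot be told apart.

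**Figure D1:**
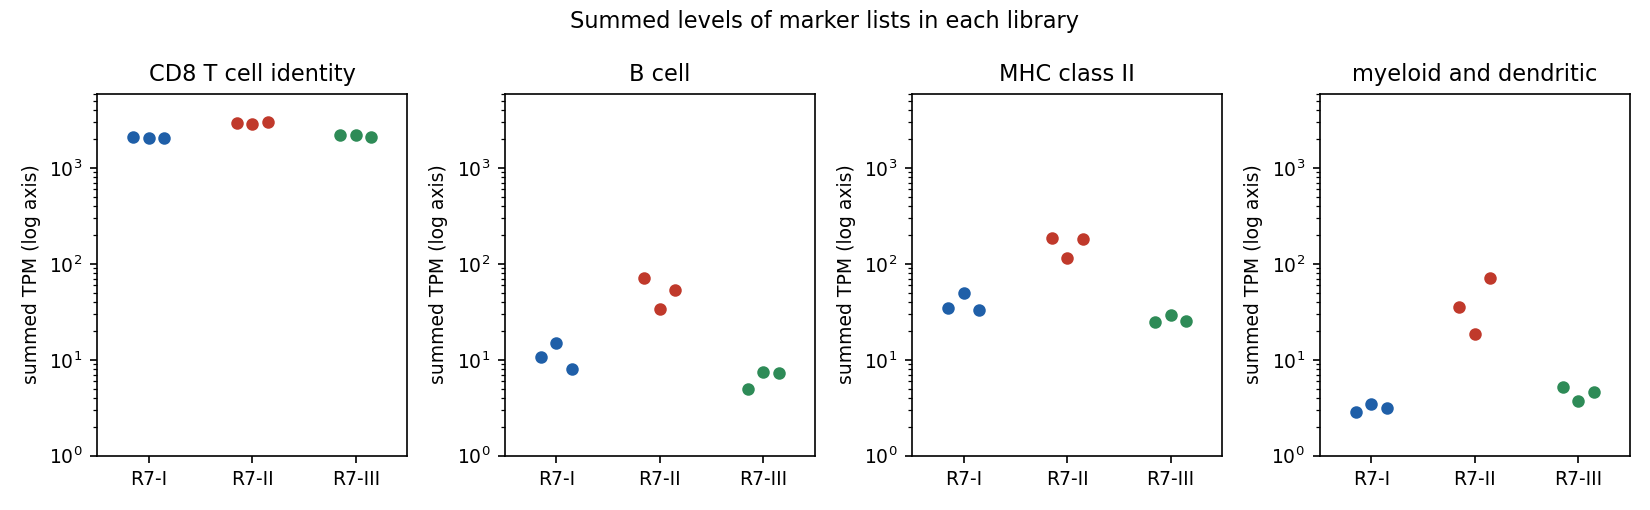
Summed TPM (log axis) of marker genes of CD8 T cells and of other cell types in each library, by clone, with 1 point per library. The 3 R7-II libraries lie above the other 6 for the CD8 T cell, B cell, MHC class II and myeloid lists.

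PD-1, TIGIT, BTLA and CD200 RNA was lower in R7-II than in either other clone. With limma on log2(TPM + 1) and an adjusted p under 0.01 across the 11330 genes whose highest TPM exceeded 1, Pdcd1, Tigit, Btla and Cd200 were lower in R7-II than in R7-I, 4 of 9 members, and none was higher. Of all genes tested 56.1% passed in that comparison, 15.5% lower and 40.6% higher. Against R7-III, 7 of 9 members were lower in R7-II, all but Cd274 and Pdcd1lg2, and 6 of 8 when Havcr2 is set aside, which entered the test only through R7-III, where it was highest. In that comparison 53.6% of all genes passed, 18% lower and 35.6% higher. In R7-III set against R7-I, Tigit and Cd160 were higher in R7-III, 2 of 9 members, beside 8.41% of all genes passing, 6.96% higher and 1.45% lower. The R7-II comparisons share the R7-II libraries and are not independent.

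Havcr2 included, the members' median log2 fold change was -0.37 for R7-II against R7-I, where the median of all genes was 0.17. Against R7-III it was -0.49, beside 0.12 for all genes, and for R7-III against R7-I it was 0.15, beside 0.04. Without Havcr2 the medians were -0.26, -0.49 and 0.14. Because the median gene itself moved by over 0.1 in R7-II, values were also computed after median-of-ratios scaling, which sets that median close to 0. On that scale 8 members, all but Havcr2, were lower in R7-II than in R7-I, where 54.8% of all genes passed, 29.6% lower and 25.2% higher. Against R7-III 7 members were lower, where 53.3% passed, 28.4% lower and 25% higher. Havcr2 was among those 7, and on TPM it passed the filter only through R7-III. With R7-III set against R7-I only Cd274 passed by limma, being lower, where 8.6% of all genes passed, 3.73% lower and 4.87% higher, and 5 members had an unadjusted p under 0.05.

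**Figure D2:**
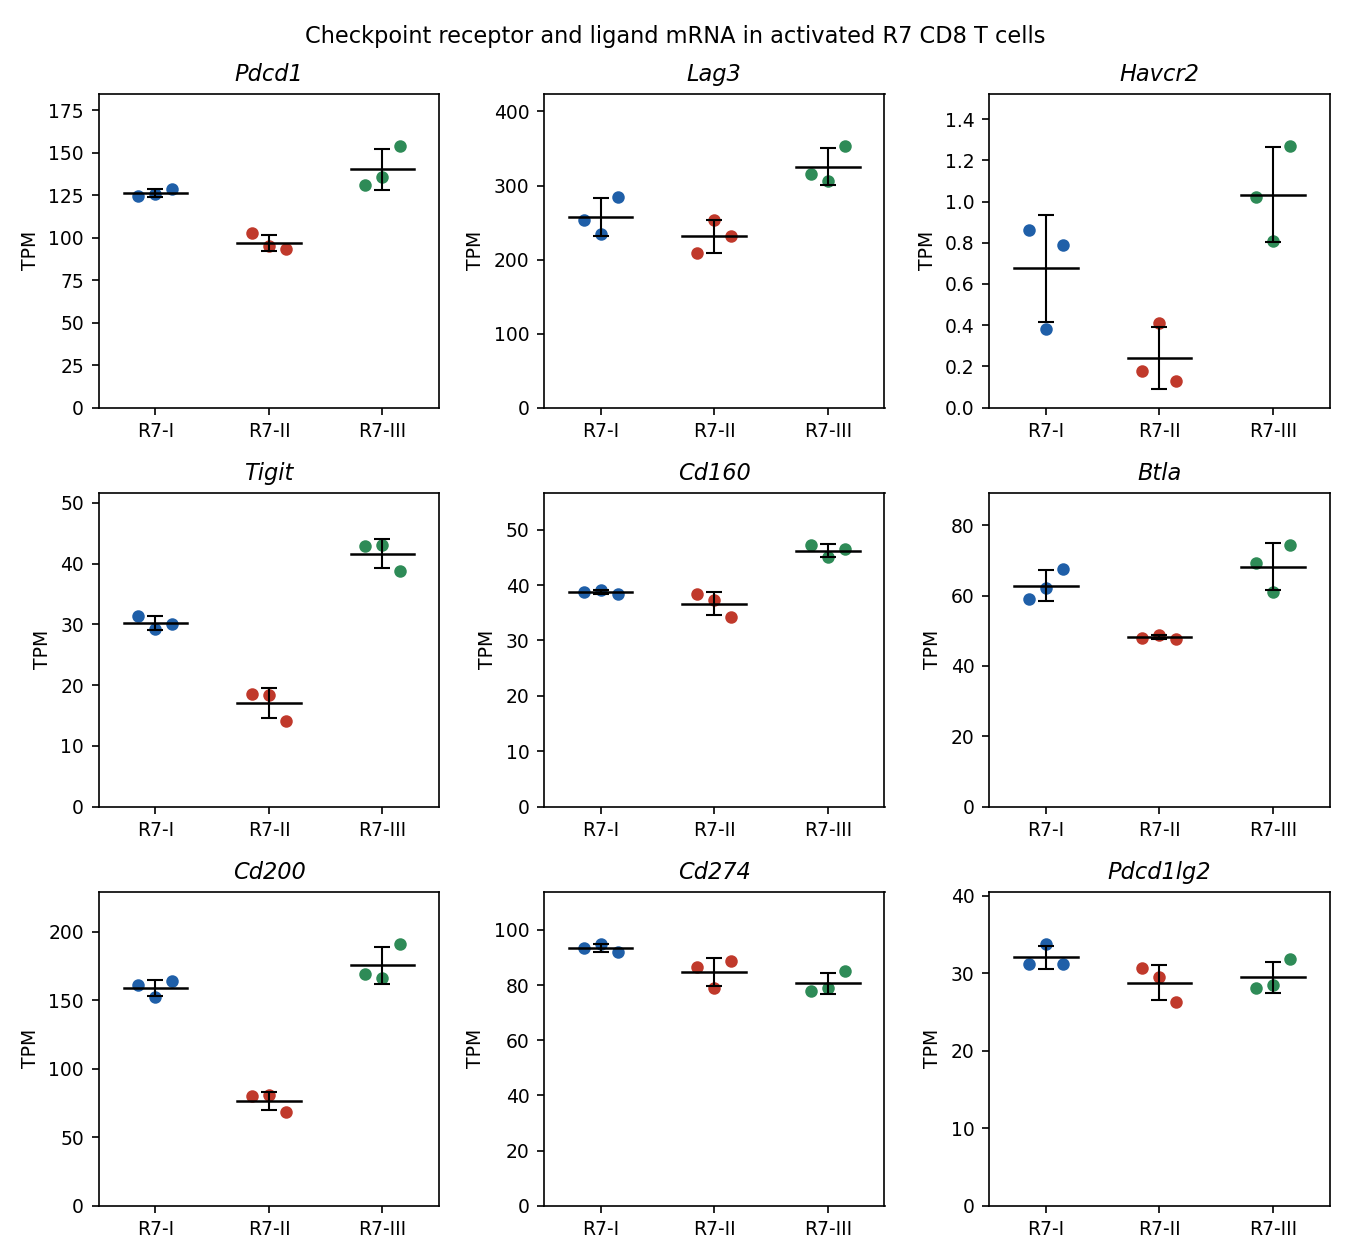
TPM of the 9 checkpoint genes in each library, by clone, with a point per library and a bar with whiskers for mean and SD (n = 3). The R7-II points lie under all others for Pdcd1, Tigit, Cd160, Btla and Cd200, and the clones overlap most for Pdcd1lg2.

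**Figure D3:**
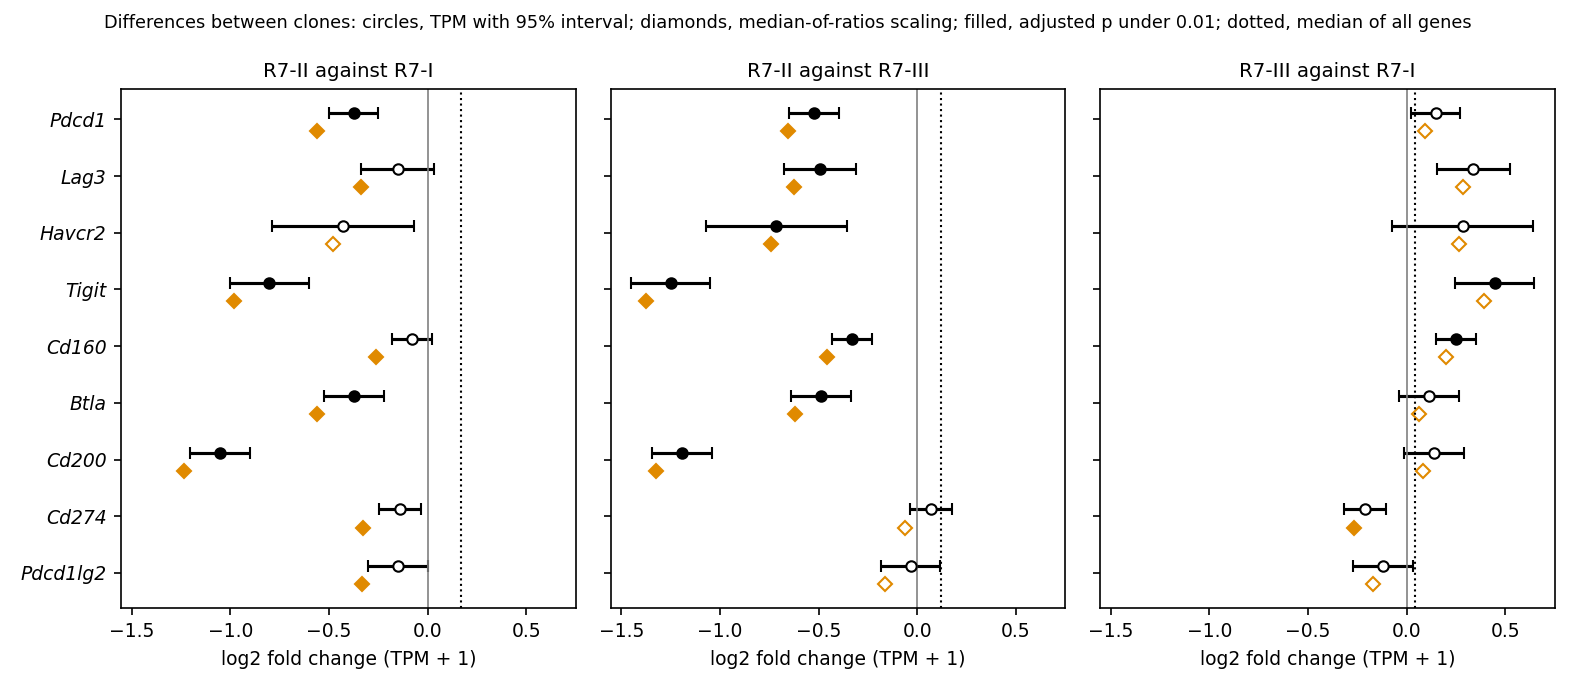
Log2 fold changes of the 9 genes in the 3 comparisons: circles with 95% intervals are from the deposited TPM, diamonds are after median-of-ratios scaling, filled symbols passed an adjusted p of 0.01, and the dotted line is the median of all genes. Cd200 and Tigit lie farthest to the left in both R7-II panels, at -1.05 and -0.80 against R7-I and at -1.19 and -1.25 against R7-III.

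Pdcd1 encodes PD-1, the receptor whose tail recruits the phosphatase SHP-2. Its level was 124, 125 and 129 TPM in the R7-I libraries, 102, 95.2 and 93.6 in R7-II and 131, 135 and 154 in R7-III. Every R7-II library lay below every other library, and R7-III lay just above R7-I without overlap. The mean was 97.1 ± 4.74 TPM in R7-II (SD, n = 3), 126 ± 2.24 in R7-I and 140 ± 12.2 in R7-III. R7-II differed by log2 -0.38 (SE 0.0568, limma adjusted p = 0.000171) from R7-I and by -0.52 (adjusted p = 1.79e-05) from R7-III. R7-III exceeded R7-I by 0.15, which did not pass (limma adjusted p = 0.0993). In all clones PD-1 RNA stood high, above 83.9% of the tested genes in R7-II, 88.2% in R7-I and 89.3% in R7-III.

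Lag3, encoding LAG-3, was the most abundant member. It measured 253, 235 and 285 TPM in R7-I, 209, 253 and 232 in R7-II and 316, 307 and 354 in R7-III. R7-III stood above all other libraries and R7-I and R7-II overlapped. The difference of R7-II from R7-III was -0.49 (SE 0.0828, limma adjusted p = 0.000391), and that from R7-I was -0.15 with a 95% interval of -0.34 to 0.03 (adjusted p = 0.123). R7-III exceeded R7-I by 0.34, which missed the threshold (limma adjusted p = 0.0177). After median-of-ratios scaling the difference of R7-II from R7-I was -0.34 and passed (limma adjusted p = 0.00746).

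Havcr2, encoding TIM-3, was near the floor of detection. It read 0.86, 0.38 and 0.79 TPM in R7-I, 0.18, 0.41 and 0.13 in R7-II and 1.02, 0.81 and 1.27 in R7-III. R7-II overlapped R7-I and lay below R7-III. It entered the test only because 2 R7-III libraries exceeded 1 TPM, so its call against R7-III, -0.71 on the log2(TPM + 1) scale (limma adjusted p = 0.00263), rests on the group where it was highest. Leaving out R7-II replicate 1 or R7-III replicate 3 raised that adjusted p to 0.0102 and 0.0139, in a range of 0.000881 to 0.0139 over the alternatives. In R7-II only 0.565% of the tested genes had a lower mean level.

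Tigit encodes TIGIT, which competes with CD226 and CD96 for CD155 on antigen-presenting cells. Its level was 31.4, 29.2 and 30.1 TPM in R7-I, 18.5, 18.4 and 14.1 in R7-II and 42.9, 43.1 and 38.8 in R7-III. The 3 clones separated fully, with R7-III highest, R7-I between and R7-II lowest. R7-II was lower by log2 -0.80 (SE 0.0903, limma adjusted p = 2.13e-05) than R7-I and by -1.25 (adjusted p = 9.54e-07) than R7-III, and R7-III was higher than R7-I by 0.45 (adjusted p = 0.00717). The last call was lost after median-of-ratios scaling, at 0.39 (limma adjusted p = 0.0173, in a range of 0.000472 to 0.0354 over the alternatives). It was also lost when any 1 of the 6 libraries of R7-I and R7-III was left out, with limma adjusted p-values from 0.0137 without R7-III replicate 3 to 0.0321 without R7-III replicate 2. The span of Tigit from start to end overlaps that of Zbtb20 over 8.26 kb, and the libraries do not keep strand. Whether this overlap affects the TPM of either gene was not tested. Zbtb20 was at 0.403 TPM in R7-I, 2.11 in R7-II and 0.510 in R7-III.

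CD226 and CD96 are the counterparts of TIGIT. Cd226 averaged 97.4 TPM in R7-I, 96.0 in R7-II and 81.1 in R7-III. It was lower in R7-III than in R7-I by log2 -0.26 (limma adjusted p = 0.00323). R7-II exceeded R7-III in Cd226 by 0.24 on TPM (limma adjusted p = 0.000879), a call lost after median-of-ratios scaling at 0.11 (adjusted p = 0.0371), where Cd226 was instead lower in R7-II than R7-I by log2 -0.21 (adjusted p = 0.00107). Cd96 averaged 69.4, 71.3 and 71.7 TPM and passed in no comparison. The ratio of Tigit to Cd226, a pair chosen after the values were seen and given as a description, was 0.311 ± 0.0183 in R7-I, 0.179 ± 0.0350 in R7-II and 0.513 ± 0.0302 in R7-III (SD, n = 3), with no overlap between clones. The ratio of Tigit to Cd96 was 0.437, 0.239 and 0.580 in the same order. Pvr, encoding CD155 itself, was low at 7.68, 9.27 and 7.67 TPM and passed in no comparison on TPM.

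Btla and Cd160 encode receptors for HVEM, the product of Tnfrsf14. Btla measured 59.0, 62.1 and 67.5 TPM in R7-I, 48.1, 48.8 and 47.7 in R7-II and 69.4, 61.0 and 74.4 in R7-III. The R7-II libraries lay close together below all others, and R7-I and R7-III overlapped. R7-II was lower by log2 -0.37 (SE 0.0689, limma adjusted p = 0.000669) than R7-I and by -0.49 (adjusted p = 0.000112) than R7-III. Cd160 measured 38.7, 39.1 and 38.4 TPM in R7-I, 38.3, 37.3 and 34.3 in R7-II and 47.3, 45.0 and 46.4 in R7-III. R7-III stood apart above the other 6 libraries, and R7-II lay below R7-I by a margin smaller than its own spread. Cd160 was higher in R7-III than in R7-I by 0.25 (limma adjusted p = 0.00428) and lower in R7-II than in R7-III by log2 -0.33 (adjusted p = 0.000106). The call between R7-III and R7-I was lost after median-of-ratios scaling (log2 0.20, limma adjusted p = 0.0135, in a range of 0.00126 to 0.385 over the alternatives) and without any 1 of the 6 libraries of these clones (0.0126 to 0.0233). The difference of Cd160 between R7-II and R7-I, -0.08 with a 95% interval of -0.18 to 0.02, did not pass (limma adjusted p = 0.149) but was -0.26 after median-of-ratios scaling, where it passed (adjusted p = 0.000499).

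HVEM RNA ran the other way, as did the summed B cell and myeloid genes, whose part in it was not tested. Tnfrsf14 averaged 30.3 ± 3.41 TPM in R7-I, 103 ± 9.29 in R7-II and 32.3 ± 6.40 in R7-III (SD, n = 3). It was higher in R7-II by log2 1.74 (limma adjusted p = 9.16e-07) than in R7-I and by 1.66 (adjusted p = 1.24e-06) than in R7-III. Tnfsf14, encoding LIGHT, another HVEM ligand, was lower in R7-II, at 47.3 TPM beside 64.6 in R7-I and 65.1 in R7-III. As a description, the ratio of Btla to Tnfrsf14 was 2.09 ± 0.161 in R7-I, 0.469 ± 0.0502 in R7-II and 2.14 ± 0.233 in R7-III, and that of Cd160 to Tnfrsf14 was 1.29, 0.357 and 1.46. Both ratios lay below 1 in R7-II and above it in the other clones.

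**Figure D4:**
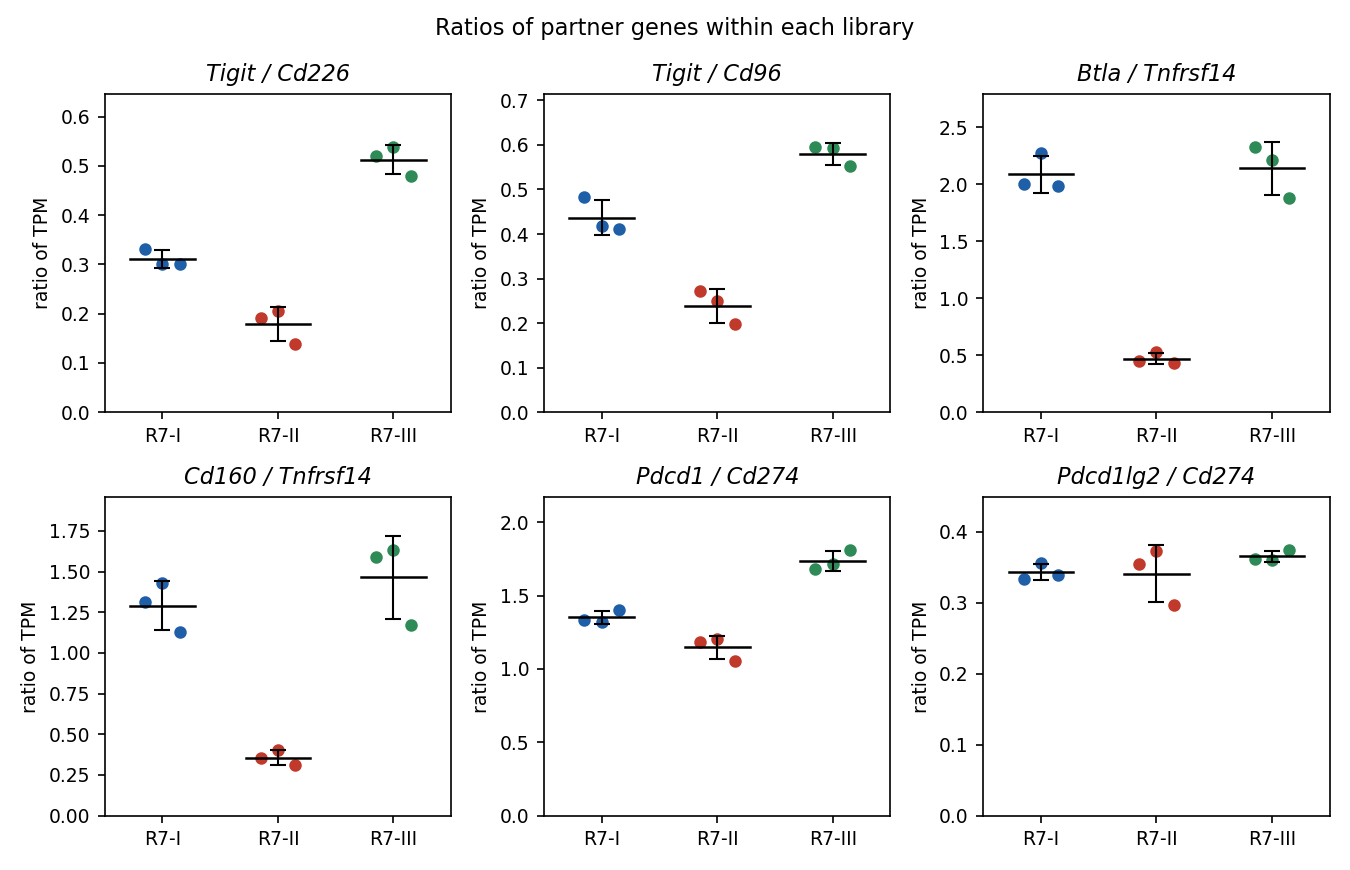
Ratios of TPM within each library for 6 pairs of checkpoint genes and their partners, by clone, with a point per library and a bar for the mean and SD (n = 3). R7-II lies under the other clones for Tigit/Cd226, Tigit/Cd96, Btla/Tnfrsf14, Cd160/Tnfrsf14 and Pdcd1/Cd274, but not for Pdcd1lg2/Cd274.

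Cd200 encodes a surface glycoprotein that restrains myeloid cells through CD200R and is induced on activated T cells. Its level was 161, 152 and 164 TPM in R7-I, 80.2, 80.5 and 68.4 in R7-II and 169, 166 and 191 in R7-III. All R7-II libraries lay far below the rest, and R7-III lay just above R7-I. R7-II was lower by log2 -1.05 (SE 0.0687, limma adjusted p = 5.36e-07) than R7-I and by -1.19 (adjusted p = 2.46e-07) than R7-III. The difference between R7-III and R7-I was 0.14 (95% interval -0.01 to 0.29, limma adjusted p = 0.194). Cd200r1, encoding the receptor, was listed below 1 TPM in every library and was not tested. The nearest tested gene to Cd200 on chromosome 16 was Btla, 129 kb away.

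Cd274 and Pdcd1lg2, the PD-1 ligands, lie 22.8 kb apart on chromosome 19. Cd274 measured 93.3, 94.9 and 91.9 TPM in R7-I, 86.7, 79.0 and 88.6 in R7-II and 77.8, 78.9 and 85.0 in R7-III. R7-I lay above all others while R7-II and R7-III overlapped. No comparison of Cd274 passed on TPM, at log2 -0.14 for R7-II against R7-I (limma adjusted p = 0.0249), 0.07 against R7-III (adjusted p = 0.210, turning to -0.06 after median-of-ratios scaling) and -0.21 for R7-III against R7-I (adjusted p = 0.0131, but 0.00441 without R7-II replicate 2). After that scaling the first and the last passed, at -0.33 (limma adjusted p = 5.24e-05) and -0.26 (adjusted p = 0.00204). Cd274 overlaps Plgrkt over 5.19 kb, and Plgrkt was higher in R7-II at 47.2 TPM beside 30.3 in R7-I and 36.5 in R7-III.

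Pdcd1lg2 measured 31.2, 33.8 and 31.2 TPM in R7-I, 30.7, 29.5 and 26.3 in R7-II and 28.1, 28.4 and 31.8 in R7-III. R7-I lay just above R7-II, and R7-III overlapped both. The difference of R7-II from R7-I was -0.15 (95% interval -0.30 to -0.0011, limma adjusted p = 0.0687) and that from R7-III was -0.03 (95% interval -0.18 to 0.12, adjusted p = 0.689). After median-of-ratios scaling the difference from R7-I was -0.33 and passed (limma adjusted p = 0.00105). Pdcd1lg2 stood at 0.343 of Cd274 in R7-I, 0.341 in R7-II and 0.365 in R7-III. The ratio of Pdcd1 to Cd274 was 1.35 in R7-I, 1.15 in R7-II and 1.74 in R7-III, given as a description.

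Taking R7-II against the other 6 libraries together, an exact two-sided permutation test gave p = 0.0238, the smallest it can give with 3 against 6, for Pdcd1, Tigit, Cd160, Btla and Cd200. The exact p was 0.0476 for Havcr2, which passed the filter only through R7-III, 0.0714 for Lag3, 0.286 for Pdcd1lg2 and 0.667 for Cd274. These 9 permutation tests were not adjusted, and between any pair of clones such a test cannot go below 0.1. The share of all tested genes that reach 0.0238 in this permutation test was not computed. Genes outside the members reached it too, among them Csk and Fyn, higher in R7-II on TPM, and Hmgb1, lower. Groups did not overlap for 7 of 9 members between R7-II and R7-I, near the 71.2% of all tested genes, for 7 of 9 with R7-II set against R7-III (70.6%), and for 6 of 9 with R7-III set against R7-I (41.9%). The 7 that did not overlap between R7-II and R7-III include Havcr2.

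In 7 of the 9 genes, all but the PD-1 ligands, the means fell in the order R7-III, R7-I, R7-II. The share of all tested genes with that order was not computed, so the count is given as a description only. Havcr2 among them was near the floor and entered the test only through R7-III. Tigit was the only member for which each step of that order passed on TPM, and its step from R7-III to R7-I did not pass with any 1 of those 6 libraries left out. For Pdcd1, Btla and Cd200 the step from R7-III to R7-I did not pass, and it reversed after scaling to CD8 T cell identity genes. For Cd160 the step from R7-I to R7-II did not pass, and for Lag3 and Havcr2 neither neighbouring step did. For Cd274 the order was R7-I, R7-II, R7-III and for Pdcd1lg2 it was R7-I, R7-III, R7-II, with no step passing.

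The summed level of the 9 genes was 801 ± 33.3 TPM in R7-I, 621 ± 19.4 in R7-II and 908 ± 59.6 in R7-III (SD, n = 3). Lag3 held the largest share of it, 32.1% in R7-I, 37.3% in R7-II and 35.8% in R7-III. The share of Cd200 was 19.9% in R7-I and 19.3% in R7-III but 12.3% in R7-II, whereas that of Pdcd1 was 15.8%, 15.7% and 15.4%. Tigit made up 3.78%, 2.74% and 4.604% and Cd274 11.7%, 13.7% and 8.88%. The share of PD-1 RNA thus differed little between the clones, and those of CD200 and TIGIT were lowest in R7-II.

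**Figure D5:**
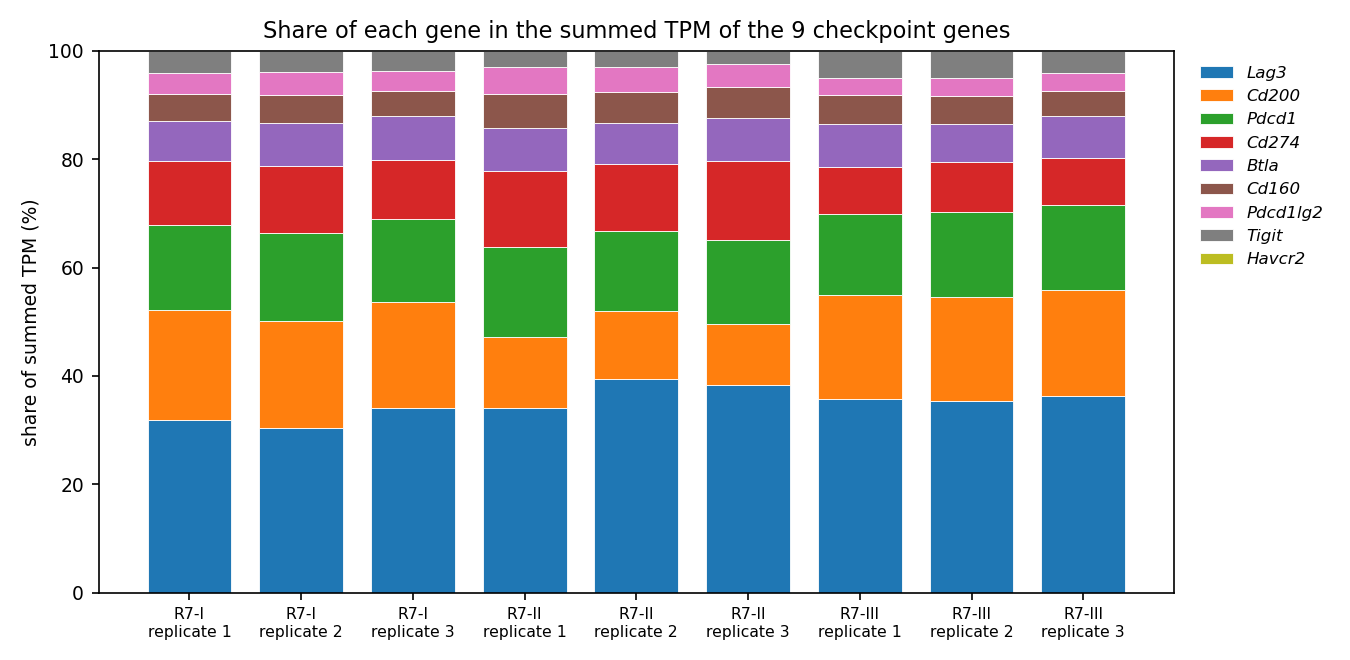
Share (%) of each of the 9 checkpoint genes in their summed TPM, 1 stacked column per library. Lag3 is the largest band in every library, and the Cd200 band is narrower in the R7-II columns, at a mean of 12.3% beside 19.9% in R7-I.

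The partner genes were read as lists beside the shares of all tested genes, which against R7-I were 40.6% higher and 15.5% lower in R7-II (25.2% and 29.6% after median-of-ratios scaling) and against R7-III 35.6% and 18% (25% and 28.4%). Of 15 ligands and counter-receptors 12 were tested. Against R7-I, 6 were higher and 2 lower in R7-II, with a median log2 fold change of 0.45 beside 0.17 for all genes, and against R7-III 5 were higher and 4 lower, with 0.19 beside 0.12. After median-of-ratios scaling the counts were 6 and 3 against R7-I and 3 and 4 against R7-III. Lgals9, encoding the TIM-3 ligand galectin-9, in R7-II exceeded its level in R7-I by 0.65 (limma adjusted p = 0.000171), at 55.9 beside 34.9 TPM. It was 43.0 TPM in R7-III, and its difference from R7-II passed on TPM only, at 0.36, and was 0.23 after median-of-ratios scaling (limma adjusted p = 0.0824). Hmgb1, a nuclear protein also described as a TIM-3 ligand, was the most abundant of the list and was lower in R7-II, at 319 TPM beside 345 in R7-I and 389 in R7-III. Lgals3, encoding the LAG-3 ligand galectin-3, was highest in R7-III at 11.8 TPM, beside 1.43 in R7-I and 4.04 in R7-II. All 7 genes of the MHC class II list were higher in R7-II than in each other clone on TPM. After median-of-ratios scaling 6 of them were higher than in R7-I. The list holds H2-Aa, H2-Ab1 and H2-Eb1, for the molecules that LAG-3 binds, but also Cd74, Ciita, H2-DMa and H2-DMb2. The B cell genes and the myeloid sum described above were higher in R7-II as well.

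Among 6 other inhibitory receptors 5 were found and 3 tested. Vsir, encoding VISTA and listed as 4632428N05Rik, was higher in R7-II at 156 TPM beside 106 in R7-I and 100.1 in R7-III (log2 0.55 and 0.64). The myeloid sum, at 18.5 to 71.4 TPM in R7-II and at most 5.23 elsewhere, was also higher in R7-II, mostly through Lyz2. Within R7-II that sum and Cd300a were highest in replicate 3, and Vsir in replicate 1. The part of myeloid cells in Vsir and Cd300a was not tested. Lair1, a collagen receptor, was lower in R7-II at 0.540 TPM beside 1.37 and 1.52. Cd300a was 2.67 TPM in R7-II beside 1.60 and 1.58, with a call against R7-I that was lost after median-of-ratios scaling (limma adjusted p = 0.0121). Between R7-III and R7-I their unadjusted limma p was 0.227 or above.

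Of the 11 phosphatases and adaptors that carry checkpoint signals, 7 were higher and 1 lower in R7-II than R7-I on TPM, but 3 and 3 after median-of-ratios scaling, and against R7-III 7 and 2, then 2 and 3. Their median difference was log2 0.20 from R7-I and 0.15 from R7-III, close to the 0.17 and 0.12 of all genes. Ptpn6, encoding SHP-1, averaged 260 TPM in R7-I, 247 in R7-II and 329 in R7-III, and was lower in R7-II than in R7-III by log2 -0.42 (limma adjusted p = 3.57e-05). On TPM alone it was higher in R7-III than in R7-I, by 0.34 (limma adjusted p = 0.00134). After median-of-ratios scaling alone Ptpn6 was lower in R7-II than in R7-I, by log2 -0.27 (limma adjusted p = 0.00314). Ptpn11, encoding SHP-2, averaged 67.1, 67.9 and 74.0 TPM and passed in no comparison on TPM, though it was lower in R7-II than in both clones after median-of-ratios scaling (log2 -0.17 and -0.25). The kinases Csk and Fyn were higher in R7-II on TPM alone, and neither passed after that scaling.

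Of 8 genes for the turnover of checkpoint proteins, 4 were higher and none lower in R7-II than in R7-I, with 2 and 1 after median-of-ratios scaling, and against R7-III 3 were higher and 1 lower, then 3 and 2. These shares and the median of 0.19 against R7-I were near those of all genes, 40.6% higher and 0.17. Cmtm6, encoding a membrane protein that keeps PD-L1 from degradation, was higher in R7-II at 111 TPM beside 78.5 in R7-I and 78.1 in R7-III (log2 0.49 and 0.50, limma adjusted p = 1.71e-06 and 1.53e-06).

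Of 23 transcription factors linked to checkpoint genes 20 were tested. In R7-II 9 were higher and 5 lower than in R7-I, turning to 4 and 8 after median-of-ratios scaling, and 5 were higher and 7 lower than in R7-III, turning to 4 and 9. All genes shifted in the same way with that scaling, and the list's median stood at 0.08 for R7-I and -0.13 for R7-III as the reference. Tbx21, encoding T-bet, was lower in R7-II at 5.25 TPM beside 45.6 in R7-I and 49.7 in R7-III (log2 -2.94 and -3.05). Tcf7, encoding TCF1, was higher at 481 TPM beside 180.0 and 183 (log2 1.41 and 1.38). Tox, a factor of exhausted T cells, ran R7-III, R7-II, R7-I at 14.1, 10.9 and 8.09 TPM, so that R7-III exceeded R7-I by 0.73 (limma adjusted p = 0.000126), while the call of R7-II over R7-I (0.39) was lost after median-of-ratios scaling at 0.22 (adjusted p = 0.0152). Irf4, which follows receptor signal strength, was lower in R7-II at 406 TPM beside 502 and 469. Nr4a1, encoding Nur77, was higher in R7-II on TPM at 315 TPM beside 245 and 225, but its difference from R7-I did not pass after median-of-ratios scaling (limma adjusted p = 0.0424). Eomes passed in no comparison, at 12.4, 7.99 and 12.1 TPM.

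The genes whose pattern across the 9 libraries was most like each member's were ranked by Pearson correlation of log2(TPM + 1) over 10625 genes, as a description, since the libraries fall into clones and share preparation. For Cd200 they were Eif2s3x, Pgam1 and Snx5 (r = 0.995, 0.995 and 0.993) and for Pdcd1 they were Suz12, Xpo4 and Hdlbp (r = 0.991, 0.983 and 0.982). For Tigit they were Pgk1, Ticam2 and Arhgap21 (r = 0.987, 0.987 and 0.983). For Lag3, Cd160 and Btla the first was Slc20a2 (r = 0.980), Cyp51 (r = 0.983) and Uap1 (r = 0.985). For Havcr2, Cd274 and Pdcd1lg2 it was Ttc32 (r = 0.964), Dcun1d4 (r = 0.955) and Nsfl1c (r = 0.934).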

How the data were processed

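RNA of 9 libraries of sorted, peptide-activated CD8 T cells was measured. According to the labels and the paper's methods, single-end TruSeq reads without strand were processed with RSEM 1.2.11 on RefSeq genes of mm10, and the authors deposited TPM values per gene symbol, with 2 decimals. TPM keeps no depth, so no counting error is given. DESeq2 1.8.1 is also listed in the submitters' processing notes; counts were not used here.

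From the deposited TPM, log2(TPM + 1) of the 11330 genes with a maximum above 1 was fitted by clone in limma 3.58.1 (R 4.3.3, eBayes with trend), 1 model for the 9 libraries, p-values adjusted by Benjamini-Hochberg over all genes, threshold 0.01. Fold changes on this scale understate changes of low genes. Exact permutation tests were two-sided and run in R. Ratios, shares, correlations and motif matches were computed in Python 3.11.15. The fit was also run on simulated data with 100 genes changed by log2 0.5 and 100 by 1. For R7-II against R7-I (11024 genes) it recovered 67% and 95% of these. The rates were 59% and 93% for R7-II against R7-III, and 66% and 89% for R7-III against R7-I. Fewer genes changed there than passed in the data, so the rates need not hold for the data. The members and lists were chosen with earlier results of these data known. All members were named. Other named genes were drawn from 12 partners and regulators chosen by role and the 3 genes of highest mean TPM in each list. They were also drawn from the 3 genes most like each member and the nearest tested neighbours. Not every gene under these rules was named. Tnfsf14, Lgals3 and Pvr were named after their values were seen. Pvrig was not matched. Prdm1 was below the filter. CD4 and NK cell marker lists summed to at most 8.01 and 0.5 TPM. The alternatives were other pseudocounts, filters, scalings, moderation and thresholds, separate fits for each pair of clones, the replicate block and leaving out each library. Promoter windows and positions are from RefSeq on GRCm38.p6.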

Additional observations from a re-analysis of the deposited data

How the results depend on the processing

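In both R7-II comparisons Pdcd1, Tigit, Btla and Cd200, and against R7-III also Lag3 and Cd160, kept their direction and their call under all 20 alternatives. Of 536 log2 fold changes of members recomputed for 27 results, 482 kept direction and side of the threshold, 23 lost a call, 24 gained one and 7 reversed. The members passing between R7-II and R7-I numbered 4, but 8 after median-of-ratios scaling, 8 after quantile normalization and 9 after scaling to CD8 T cell identity genes, which were themselves higher in R7-II. For R7-III against R7-I the 2 members passing were 1 without the filter on low values, 1 after median-of-ratios scaling, 1 after quantile normalization, 0 without the trend (limma, 4 members at an unadjusted p under 0.05) and 4 at an adjusted p of 0.05, while after CD8 identity scaling 2 passed, both lower (Cd274 and Pdcd1lg2). It ranged from 0 to 3 when 1 library was left out, and was 0 without any 1 of the R7-I or R7-III libraries, with 4 to 7 members at an unadjusted p under 0.05. All genes passing between R7-III and R7-I numbered 953, but 3013 after CD8 identity scaling, 2142 at an adjusted p of 0.05 and 436 to 1120 with 1 library left out (436 and 577 without R7-I replicate 1 and 2, 496, 497 and 530 without replicates 1, 2 and 3 of R7-III). For these shifts the cause was not tested.

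The log2 fold change of Cd274 for R7-II against R7-III turned to -0.0608 after median-of-ratios scaling and -0.3196 after CD8 identity scaling. That of Pdcd1lg2 ranged from -0.0781 to 0.0301 with 1 library left out, and turned to 0.0301 without R7-II replicate 3 and 0.0223 without R7-III replicate 3. After CD8 identity scaling, R7-III against R7-I turned to -0.0469 for Pdcd1, -0.0777 for Btla and -0.0553 for Cd200. Genes higher and lower in R7-II than in R7-I numbered 4604 and 1754 on TPM and 2847 and 3334 after median-of-ratios scaling, against R7-III 4038 and 2039 and then 2814 and 3201, and for R7-III against R7-I 789 and 164 and then 549 and 421. With the replicate number as a block, the members passing were 4, 7 and 2 and all genes 6015, 5786 and 733 in the 3 comparisons. Deviations of same-numbered libraries correlated at -0.045 to 0.089, so the numbers did not pair the libraries. Havcr2 gave no value with a filter of TPM of at least 1 in every library. For R7-II against R7-I it also gave none in the fit of these clones alone, where no library exceeded 1 TPM. Depth is unknown, so no counting error can be given, also for Havcr2 near the filter.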

Other observations

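Some of the nearest tested genes on either side of the members were read beside them. Med7, the nearest tested gene below Havcr2, averaged 18.6 TPM in R7-I, 18.8 in R7-II and 19.95 in R7-III. Ptms, 1.24 kb from Lag3, averaged 83.9, 114 and 108 TPM and in R7-II exceeded R7-I by log2 0.44 on TPM (limma adjusted p = 4.03e-05), where Lag3 did not pass. Pdzk1, 0.105 kb from Cd160, averaged 7.75, 9.58 and 8.67 TPM and in R7-II exceeded R7-I by log2 0.27 on TPM (limma adjusted p = 0.00834), where Cd160 did not pass. Rnf115, on the other side of Cd160 at 7.61 kb, averaged 58.9, 59.7 and 59.2 TPM. Atg3, 35.2 kb from Btla on the side away from Cd200, averaged 55.2, 57.2 and 54.1 TPM, and Abhd10, beyond Cd200, averaged 16.2, 15.1 and 16.3 TPM. For Med7, Rnf115, Atg3 and Abhd10 the limma adjusted p was 0.113 or above in both R7-II comparisons. D2hgdh, 184 kb from Pdcd1, in R7-II exceeded R7-I by log2 0.95 (limma adjusted p = 3.39e-06), the opposite direction to Pdcd1.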
